A study of Mus musculus with 18 samples.

Results

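Described here is how much more, or less, each gene changed in CD8 than in CD4 T cells of mouse bone marrow when IL-10 was overexpressed. The measure is a difference of differences on the log2 scale: the change in CD8 cells minus the change in CD4 cells, where each change is zinc-fed pMT-10 over zinc-fed C57BL/6. A value above 0 means that the gene rose more, or fell less, in CD8 cells, and a value below 0 the opposite. The labels put 12 of the 18 libraries of the series in it, 3 in each of 4 groups. The other 6 libraries served as a second control.

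The groups were CD8 and CD4 T cells of pMT-10 mice given zinc in their drinking water for 30 days, CD8 and CD4 T cells of C57BL/6 mice given the same water, and CD8 and CD4 T cells of pMT-10 mice on control water. An IL-10 transgene sits behind a metallothionein promoter in pMT-10 mice, and zinc induces it. That promoter is not specific to T cells, so the cells came from animals that can make IL-10 in many tissues. The series names 3 mice of each kind and states no pooling. Its labels do not say which CD4 and CD8 libraries share a mouse, and p-values measure the spread between these libraries only. Strain and sex differed together against C57BL/6, since those libraries held reads of Y-linked genes and the pMT-10 libraries Xist. Zinc and sequencing chip differed together against pMT-10 on control water, with 12 libraries on a chip and 6 on another. A factor that differs with IL-10 induction in either comparison cannot be told apart from it there.

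IL-10 is a cytokine that restrains inflammation, signals through its receptor to the transcription factor STAT3, and can also stimulate CD8 T cells. CD8 T cells are the killer arm of the T cell response and keep the granule genes and the factors Eomes and Runx3 ready for use, while CD4 T cells are helpers or regulatory cells. Regulatory and chronically stimulated T cells carry coinhibitory receptors such as PD-1, TIGIT and CTLA-4, and naive T cells carry the repressor Bach2 until they are activated.

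Total counts ran from 10546798 to 18519474 per library, with 1 amplicon per gene, so levels are compared between samples and not between genes. Levels are in CPM, counts scaled to a common total by TMM-adjusted library size, listed in the order of replicates 1 to 3. The sort was checked on the coreceptor genes. Cd4 in CD8 cells stood at 0.0213% of its level in CD4 cells in zinc-fed pMT-10 mice, 0.143% in zinc-fed C57BL/6 and 0.0259% in pMT-10 without zinc. Cd8a in CD4 cells stood at 0.0559%, 0.207% and 0.0868% of its level in CD8 cells in the same mice. Some libraries stood apart. Zinc-fed pMT-10 CD4 replicate 2 kept the highest levels of several naive genes in its group, zinc-fed pMT-10 CD8 replicate 2 had the lowest levels of several genes that rose there, and zinc-fed pMT-10 CD4 replicate 3 held 172 CPM of platelet marker reads, against 2.24 to 8.24 CPM in the other 17 libraries. Zinc-fed pMT-10 CD8 replicate 3 held 25.8 CPM of neutrophil marker reads, against 1.27 to 6.45 CPM in the other CD8 libraries. In bulk samples, fewer cells of a type and less RNA per cell cannot be told apart.

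Fewer genes were called in CD8 than in CD4 cells. Against zinc-fed C57BL/6, 997 of 11316 tested genes were called in CD8 cells (8.81%), with 643 higher (5.68%) and 354 lower (3.13%). In CD4 cells 2115 were called (18.7%), with 1051 higher (9.29%) and 1064 lower (9.4%). Against pMT-10 without zinc, 876 were called in CD8 cells (7.74%; 577 higher, 5.1%, and 299 lower, 2.64%) and 2125 in CD4 cells (18.8%; 1061 higher, 9.38%, and 1064 lower, 9.4%). The difference between the 2 changes was called for 621 genes (5.49%; edgeR quasi-likelihood test, Benjamini-Hochberg adjusted p under 0.05). Of these, 386 lay above 0 (3.41%) and 235 below 0 (2.08%). A difference of at least 2-fold was reached by 330 of the genes above 0 and by 97 of those below 0. The count of 621 depended on single libraries: it was 264 without zinc-fed pMT-10 CD4 replicate 1, 390 without replicate 3 of that group, 410 without zinc-fed pMT-10 CD8 replicate 2, 351 without zinc-fed C57BL/6 CD8 replicate 3, and 332 and 378 without zinc-fed C57BL/6 CD4 replicates 1 and 2. With library sizes left unscaled by TMM the median of all genes moved to 0.206 from 0.047 and the split became 648 above and 120 below 0. The CD8 and CD4 splits against C57BL/6 became 731 higher with 245 lower and 831 higher with 1448 lower.

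**Figure D1:**
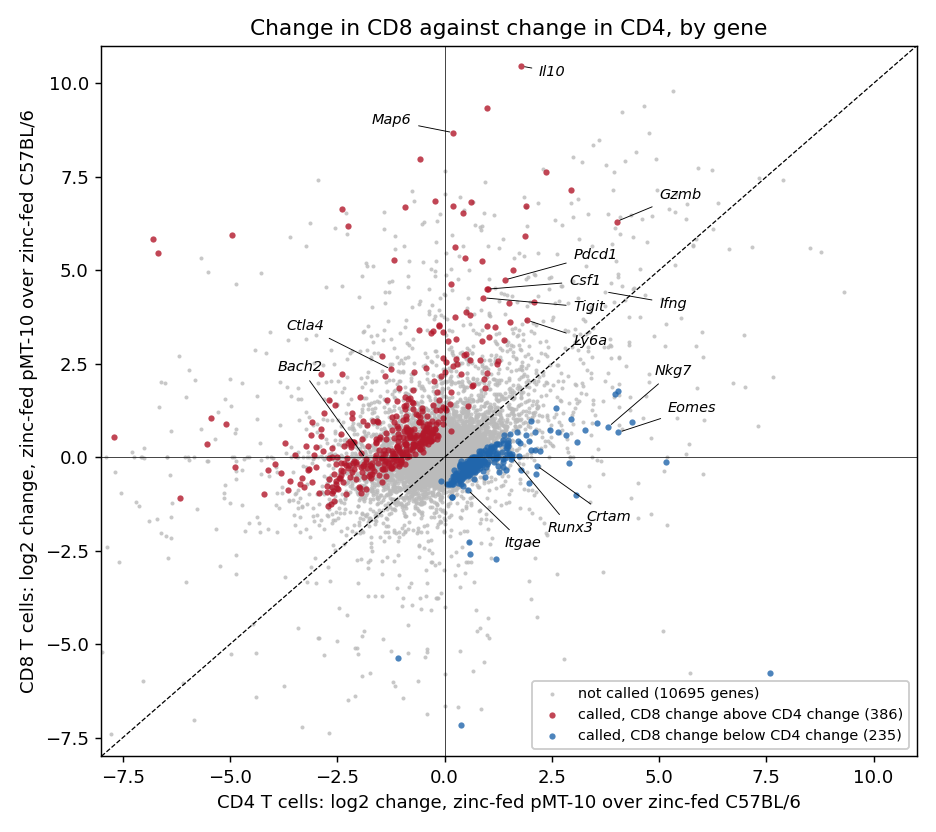
Log2 change of each of 11316 genes in CD8 T cells (vertical axis) against its log2 change in CD4 T cells (horizontal axis), both zinc-fed pMT-10 over zinc-fed C57BL/6, with the dashed line at equal change. Red points are the 386 genes whose CD8 change was called above the CD4 change, blue points the 235 called below, and 7 genes, none of them called, lie outside the axes; fitted values of genes with a group at 0 counts are not bounds.

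The called genes fell into a few patterns. Above 0, the commonest was a fall in CD4 cells with no called change in CD8 cells, seen for 207 genes (53.6% of 386), with a median log2 change of 0.1 in CD8 and -1.55 in CD4 cells. Another 95 genes (24.6%) rose in CD8 cells with no called change in CD4 cells, with medians of 1.73 and -0.18. A rise in both cell types, larger in CD8, was seen for 24 genes (6.22%; medians 3.65 and 1.39), a fall in both for 17 (4.4%), and 14 (3.63%) rose in CD8 and fell in CD4 cells. Below 0, a rise in CD4 cells with no called change in CD8 cells made up 173 of 235 genes (73.6%), with medians of -0.14 in CD8 and 0.82 in CD4 cells, and 33 genes (14%) fell in CD8 cells with no called change in CD4 cells. In all, 19 genes moved in opposite directions.

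**Figure D2:**
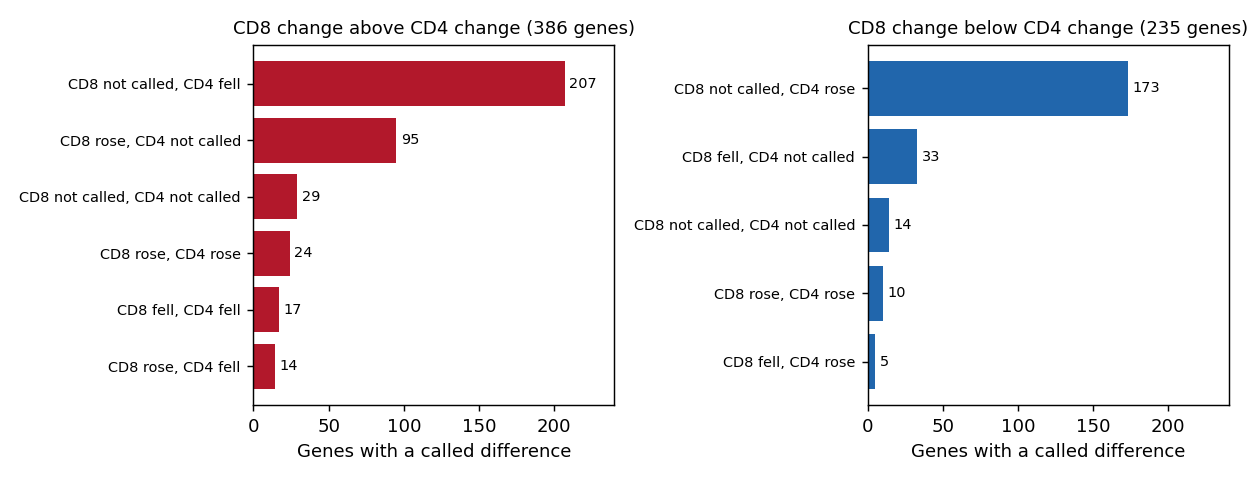
Number of called genes by what each cell type did, with 386 genes of a difference above 0 on the left and 235 below 0 on the right. "Rose", "fell" and "not called" refer to the change of zinc-fed pMT-10 over zinc-fed C57BL/6 in that cell type at adjusted p under 0.05; the longest bars are the 207 genes that fell and the 173 that rose in CD4 cells with no called change in CD8 cells.

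The sign of the difference was nearly always the same with pMT-10 mice without zinc as control. Of the 621 called genes, 620 (99.8%) kept their sign there, against 9126 of all 11316 tested genes (80.6%). The test against that control called 428 genes (3.78%), 276 above 0 (2.44%) and 152 below (1.34%), of which 289 were shared, or 46.5% of the 621 and 67.5% of the 428, and 0 were called in opposite directions. Both comparisons share the 6 zinc-fed pMT-10 libraries, so these counts are a description. Named genes called against C57BL/6 but not against pMT-10 without zinc included Cd4 at -0.54, Il2rb at -0.2, Lgals3bp at -0.4 and Ccdc102a at -0.79 there. They also included Dusp1 at 0.63, Egr3 at -0.93, Tpi1 at -0.66, Dapl1 at 1.45, Bach2 at 1.24, Plek at -1.71, Ica1 at 2.72 and Mx2 at 3.11. Jun, Vim, Il6ra, Gpr83, Klrg1, Serpinb1a, Fyn and Bcl2 were not called there either. The count of 428 was 139 when CD4 replicate 1 of zinc-fed pMT-10 was left out, 697 without replicate 2 and 212 without replicate 3, and 264, 202 and 222 without pMT-10 without zinc CD4 replicates 1, 2 and 3. The single gene that turned was Pdlim7, the gene of a cytoskeletal adaptor. In CD8 cells it stood at 24.7, 20 and 32.9 CPM in zinc-fed pMT-10, at 25.1, 22 and 25.9 CPM in zinc-fed C57BL/6 and at 11.4, 12.1 and 12.2 CPM in pMT-10 without zinc. Its levels in CD4 cells were 34.7, 39.8 and 38.6 CPM, 9.65, 11.3 and 16.8 CPM, and 20.4, 13.5 and 19.7 CPM in the same mice. Its 2 control groups stood apart in CD8 cells, and the difference was -1.49 against C57BL/6 and 0.05 against pMT-10 without zinc. When the control groups were set against each other, 1 gene was called in edgeR (0.00884%; 461 at an unadjusted p under 0.05, and 8 in DESeq2). It was Adgrg5, an adhesion G protein-coupled receptor gene, at log2 -2.38 (adjusted p = 0.00349).

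A larger change on the log2 scale did not always mean more transcripts gained. Of the 386 genes above 0, 345 (89.4%) also gained more, or lost less, CPM in CD8 than in CD4 cells. Among the 24 genes that rose in both, 8 did (33.3%), and the other 16, Pdcd1 and Tigit among them, gained more CPM in CD4 cells from a higher starting level. Of the 235 genes below 0, 233 (99.1%) had the same sign in CPM. Starting levels differed too. In pMT-10 mice without zinc, all 24 genes that rose in both and 80 of the 95 that rose in CD8 cells stood lower in CD8 than in CD4 cells. Of all 386 genes above 0, 247 did (64%), against 55.5% of all tested genes with a difference above 0, called or not. Of the 235 below 0, 176 stood higher in CD8 cells there (74.9%, against 54.1%).

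**Figure D3:**
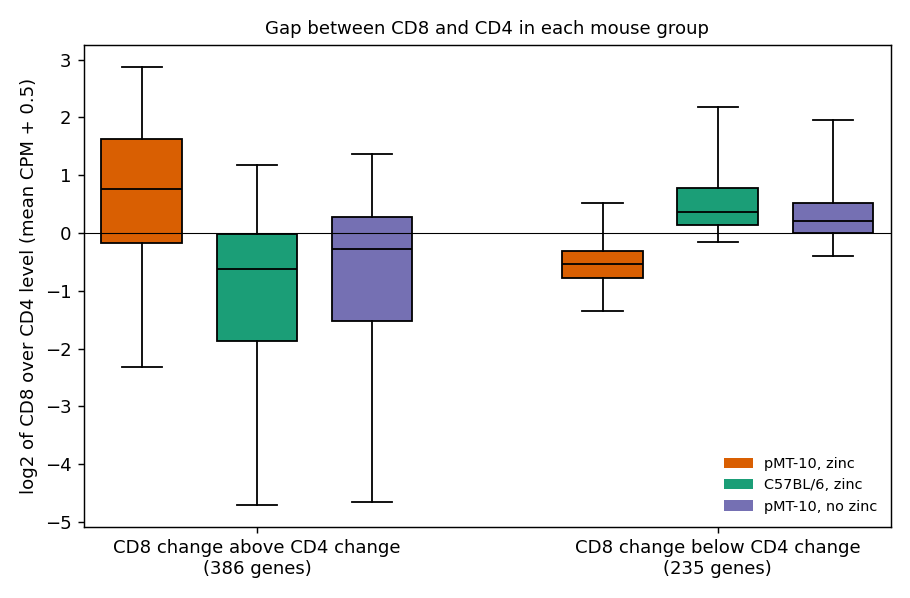
Log2 ratio of the CD8 level to the CD4 level (mean CPM + 0.5) within zinc-fed pMT-10, zinc-fed C57BL/6 and pMT-10 mice without zinc, for the 386 called genes above 0 and the 235 below 0. Lines mark medians, boxes the quartiles and whiskers the 5th to 95th percentiles; the median was 0.753 in zinc-fed pMT-10, -0.617 in zinc-fed C57BL/6 and -0.272 in pMT-10 without zinc for genes above 0, and -0.534, 0.364 and 0.215 for genes below 0, and the C57BL/6 and zinc-fed pMT-10 values were used to choose the genes.

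Many coinhibitory receptor and exhaustion genes rose more steeply in CD8 cells. Of 18 tested genes of that list, 9 had a called difference above 0 and none below, with a median log2 difference of 1.96, against 0.05 for all genes tested. In CD8 cells 14 of them rose and none fell, and in CD4 cells 11 rose and 1 fell. Against pMT-10 without zinc 8 were called above 0 and none below. The counts of each list can be set against all tested genes, of which 3.41% were called above 0 and 2.08% below. In CD8 cells 5.68% of all tested genes rose and 3.13% fell, and in CD4 cells 9.29% rose and 9.4% fell.

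Pdcd1, the gene of the receptor PD-1 (chromosome 1, 94038305 to 94052553, GRCm38), stood in CD8 cells at 258, 98.3 and 255 CPM in zinc-fed pMT-10 and at 14.2, 2.8 and 5.82 CPM in zinc-fed C57BL/6 mice. The CD4 cells held 689, 509 and 725 CPM and 241, 167 and 323 CPM. The zinc-fed groups did not overlap in either cell type, and zinc-fed pMT-10 CD8 cells overlapped with C57BL/6 CD4 cells. The change was 26.7-fold in CD8 and 2.63-fold in CD4 cells, a log2 difference of 3.34 (SE 0.63, adjusted p = 0.00696; 4.13 without zinc-fed C57BL/6 CD8 replicate 1). In mean CPM the gain was 196 in CD8 and 398 in CD4 cells.

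Tigit, which encodes a receptor for nectin-family ligands (chromosome 16, 43648867 to 43664146), showed the same shape. CD8 cells held 39.8, 20.6 and 54.7 CPM in zinc-fed pMT-10 and 2.32, 1.4 and 2.21 CPM in zinc-fed C57BL/6. CD4 cells held 168, 139 and 154 CPM and 120, 57.7 and 68.6 CPM. Both changes were without overlap, 19.4-fold in CD8 and 1.87-fold in CD4 cells, and the difference was 3.36 (SE 0.45, adjusted p = 0.000327). Tox2, a nuclear factor gene of the TOX family, stood at 27.3, 7.91 and 34.6 CPM against 0, 0 and 0.535 CPM in CD8 cells and at 163, 117 and 156 CPM against 34, 19.8 and 62.5 CPM in CD4 cells. Neither pair of groups overlapped, and the change was 130-fold in CD8 and 3.75-fold in CD4 cells (difference 4.82, SE 0.96, adjusted p = 0.00796). Its 8 reads in zinc-fed C57BL/6 CD8 cells all lay in replicate 3, without which the fitted value was 9.41 against a group at 0, which is no bound. Rgs16, a regulator of G-protein signalling, stood at 20.8, 5.46 and 22.7 CPM against 0.686, 0.561 and 0.87 CPM in CD8 cells (difference 3.48, adjusted p = 0.00823). In CD4 cells of these mice it stood at 84.2, 88.8 and 89.5 CPM against 51.9, 16.6 and 61.5 CPM, which was not called (adjusted p = 0.0922).

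Ctla4, the gene of a CD28 antagonist that regulatory T cells carry, moved in opposite directions. In CD8 cells it rose to 15.2, 6.31 and 11.1 CPM in zinc-fed pMT-10, against 2.75, 0.654 and 2.81 CPM in zinc-fed C57BL/6 mice. In CD4 cells it fell to 102, 83 and 85.7 CPM, against 174, 196 and 276 CPM. Neither pair of groups overlapped, and the difference was 3.6 (SE 0.43, adjusted p = 0.000107), with 3.71 against pMT-10 without zinc. The CD8 level in zinc-fed pMT-10 mice was 12% of the CD4 level, and for Pdcd1, Tigit, Tox2 and Rgs16 it was 31.8%, 25%, 16% and 18.7%. Cd4 in those CD8 libraries was at 0.0213% of its CD4 level. The part of any CD4 cells in the CD8 levels of these genes was not tested. Lag3 and Havcr2, receptors that bind MHC class II and galectin-9, rose in both cell types, by log2 5.97 and 6.42 in CD8 and 4.08 and 4.1 in CD4 cells, with differences of 1.89 and 2.33 that were not called (adjusted p = 0.246 and 0.267). The difference of Lag3 was 1.24 without zinc-fed C57BL/6 CD4 replicate 3.

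**Figure D4:**
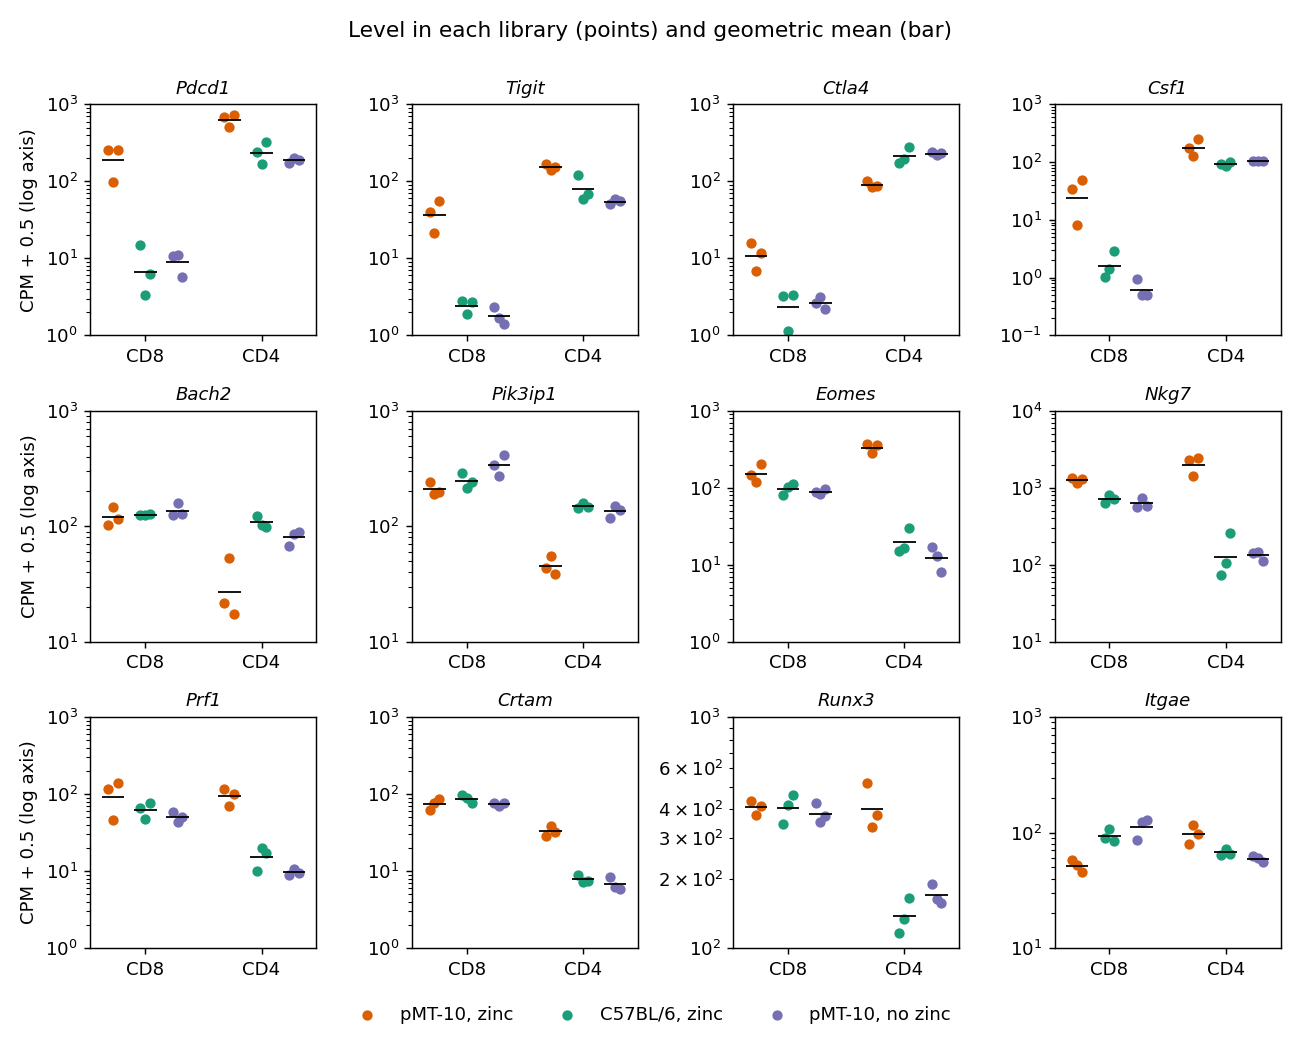
Level (CPM + 0.5, log axis) of 12 genes in each of the 18 libraries, CD8 on the left and CD4 on the right of each panel, with zinc-fed pMT-10, zinc-fed C57BL/6 and pMT-10 without zinc in that order and bars at geometric means. Pdcd1, Tigit and Csf1 rise most steeply in CD8 cells, Bach2 and Pik3ip1 drop in zinc-fed pMT-10 CD4 cells, and Eomes, Nkg7, Prf1, Crtam and Runx3 rise there.

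Il10 itself rose in both cell types. In CD8 cells it stood at 22.4, 3.2 and 12.9 CPM in zinc-fed pMT-10 and at 0 in all 3 libraries of zinc-fed C57BL/6 and all 3 of pMT-10 without zinc. Its levels in CD4 cells were 26, 16.6 and 20.9 CPM in zinc-fed pMT-10, 7.14, 3.01 and 8.25 CPM in zinc-fed C57BL/6, and 3.1, 3.63 and 1.4 CPM in pMT-10 without zinc. Set against 3 counts over the group at 0, the CD8 level was at least 163-fold higher, which puts the difference at 5.53 or more (adjusted p = 0.00373 for the fitted value). The bounds were 107-fold and 4.93 without zinc-fed pMT-10 CD8 replicate 1, and 97.9-fold and 4.79 without zinc-fed C57BL/6 CD8 replicate 3, where the smaller total of control reads raises the floor. Such floors cover counting error only. In CPM the mean gain was close in both, 12.8 in CD8 and 15 in CD4 cells. A single amplicon does not say whether reads came from the transgene or the mouse's own gene.

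Csf1, which encodes the macrophage growth factor M-CSF (chromosome 3, 107741048 to 107760469), was the other called gene among 23 tested cytokine and growth factor genes. CD8 cells held 34.1, 7.62 and 48.5 CPM in zinc-fed pMT-10 and 0.515, 0.935 and 2.34 CPM in zinc-fed C57BL/6, while CD4 cells held 176, 127 and 251 CPM and 92, 85.8 and 102 CPM. It rose 23.8-fold in CD8 cells (adjusted p = 0.000266), and the 1.98-fold difference in CD4 cells was not called (adjusted p = 0.162). The difference was 3.51 (adjusted p = 0.0183; 4.39 without zinc-fed C57BL/6 CD8 replicate 3). Ifng, the gene of interferon gamma, rose in both, to 240 CPM in CD8 cells against 11.2 CPM and to 662 CPM in CD4 cells against 49.6 CPM. Its difference was 0.68 (SE 0.6, adjusted p = 0.558; 1.27, not called, without zinc-fed C57BL/6 CD8 replicate 1).

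Called genes with at least 20 CPM in a zinc-fed group and the same sign against both controls were ranked by their difference. Among the 15 largest above 0 were several that the CD8 controls barely expressed and CD4 cells expressed throughout. Map6, a microtubule-stabilizing protein gene, had 4.69, 2.26 and 4.17 CPM in zinc-fed pMT-10 CD8 cells and 0 counts in all 6 control CD8 libraries, at least 47-fold higher (28.1 without zinc-fed C57BL/6 CD8 replicate 3). The CD4 cells held 53.6, 48.6 and 59.6 CPM against 53.7, 40.1 and 46.6 CPM, overlapping groups. Cass4, a Cas-family scaffold gene, was at least 76.3-fold higher in CD8 cells (50.6 without zinc-fed pMT-10 CD8 replicate 3 and 45.7 without zinc-fed C57BL/6 CD8 replicate 3), against 1.99-fold in CD4 cells, which was not called. Bounds of the difference were 5.34 for Map6 and 5.25 for Cass4, and that of Cass4 against pMT-10 without zinc was not called (fitted 2.72, adjusted p = 0.0717).

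The largest CPM gain among these 15 genes in CD8 cells belonged to 2900026A02Rik, an unnamed protein-coding gene on chromosome 5. It stood at 125, 56.9 and 164 CPM against 0, 0.28 and 1.27 CPM in CD8 cells, and at 151, 72.5 and 151 CPM against 22.9, 27.6 and 22.5 CPM in CD4 cells. Its CD8 and CD4 levels in zinc-fed pMT-10 mice overlapped, which those of zinc-fed C57BL/6 mice did not. The difference was 5.26 (SE 0.77, adjusted p = 0.00109; 7.28 without zinc-fed C57BL/6 CD8 replicate 3). Naip6, a sensor gene of the inflammasome, rose 11.6-fold in CD8 cells to 20.6, 10.4 and 16.3 CPM, against 1.97, 1.03 and 1.07 CPM, and stood at 22.8 and 25 CPM on average in CD4 cells from zinc-fed pMT-10 and C57BL/6 mice (difference 3.68, adjusted p = 0.0026). Slc4a8, a bicarbonate transporter gene, rose 23.3-fold in CD8 cells (difference 4.47, adjusted p = 0.000327; 5.2 and 3.79 without zinc-fed C57BL/6 CD8 replicates 2 and 3) and its difference against pMT-10 without zinc was 1.46 and not called (adjusted p = 0.115). Atcay, a neuronal protein gene, had a difference of 4.37 (adjusted p = 0.00999; 3.7 without zinc-fed C57BL/6 CD8 replicate 3, and 8.37, which is no bound, without replicate 1, which held all 5 reads of that group). Itgb8, Ankrd6 and Ica1 had 3 or fewer counts in zinc-fed C57BL/6 CD8 cells, so no fold is given. Their CD8 levels in zinc-fed pMT-10 mice averaged 3.67, 3.53 and 8.83 CPM, and calls were ended by leaving out 6, 1 and 10 single libraries.

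Naive and quiescence genes fell more in CD4 cells. Of 20 tested genes, 8 had a called difference above 0 and none below, with a median of 0.91 against 0.05 for all genes. In CD8 cells none rose and 4 fell, and in CD4 cells 1 rose and 15 fell. Klf2, Klf3, Foxp1 and Satb1 were among those called, at 1.27, 1.39, 0.87 and 0.95. Against pMT-10 without zinc 3 of the 20 were called above 0 and 1 below.

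Bach2, a repressor of effector genes, had overlapping CD8 levels of 102, 146 and 116 CPM in zinc-fed pMT-10 and 125, 125 and 126 CPM in zinc-fed C57BL/6. In CD4 cells it fell to 21.1, 52.9 and 16.9 CPM, against 123, 102 and 98.4 CPM, and the difference was 1.79 (SE 0.39, adjusted p = 0.0109; 2.46 without zinc-fed pMT-10 CD4 replicate 2). Against pMT-10 without zinc the difference was 1.24 and not called (adjusted p = 0.0789). Pik3ip1, an inhibitor of PI3-kinase signalling, had CD8 groups that overlapped, at 241, 191 and 196 CPM and 290, 214 and 239 CPM. It fell in CD4 cells to 43.3, 54.8 and 38.4 CPM, against 142, 158 and 147 CPM, and had a difference of 1.47 (SE 0.24, adjusted p = 0.0011). Dapl1, another gene of the list, had a difference of 2.08 that was 3.14 if zinc-fed pMT-10 CD4 replicate 2 was left out and lost its call in 8 of the 18 fits that left out a library.

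Some cytokine receptor genes had the same shape. Among 21 tested genes of IL-10 receptor and STAT3 signalling, 4 lay above 0 and 1 below, with a median of 0.16. Of all tested genes, 3.41% were called above 0 and 2.08% below. Il6st, the shared receptor chain gp130, fell in CD4 cells to 132, 192 and 158 CPM, against 491, 438 and 331 CPM, and its CD8 change was not called (difference 1.09, adjusted p = 0.00683). Il6ra, the IL-6 receptor, fell in CD4 cells to 3.13, 14.9 and 2.55 CPM, against 54.3, 67.7 and 49.8 CPM. Its difference of 2.43 was 3.66 when zinc-fed pMT-10 CD4 replicate 2 was left out, and its call was lost in 7 fits that left out a library. Pim1, a STAT-induced kinase gene, had 1.35, and Il21r, the IL-21 receptor, -0.72 (adjusted p = 0.0116 and 0.0132). Il10ra, the chain that binds IL-10, rose in both cell types, 2.88-fold in CD8 and 1.79-fold in CD4 cells, and its difference of 0.68 was not called (SE 0.28, adjusted p = 0.166). Socs3, a STAT3 target that feeds back on the pathway, was not called in CD8 cells, in CD4 cells or for the difference.

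Regulatory T cell genes with a called difference above 0 fell in CD4 cells in 4 of 5 cases. Of all called genes above 0, 53.6% fell in CD4 cells with no called change in CD8 cells. Another 4.4% fell in both cell types, and 3.63% rose in CD8 and fell in CD4 cells. A fall in CD4 cells itself raises the difference, so a count of 4 in 5 says little about this list. Of 16 tested regulatory T cell genes, 5 lay above 0 and 1 below, with a median of 1.31. In CD8 cells 3 rose and 2 fell, and in CD4 cells 2 rose and 5 fell. Nrp1, a semaphorin co-receptor of thymic regulatory T cells, stood at 4.54 CPM or less in all 6 CD8 libraries of zinc-fed mice and fell in CD4 cells to 23.2, 41.6 and 15 CPM, against 188, 146 and 136 CPM. Its difference was 3.94 (adjusted p = 0.0182; 5.18 without zinc-fed C57BL/6 CD8 replicate 1) and was not called without zinc-fed C57BL/6 CD8 replicate 3 or zinc-fed pMT-10 CD8 replicate 3 (adjusted p = 0.0643 and 0.0884). Ikzf4 and Ikzf2, transcription factors of regulatory T cells, had 2.52 and 2.08, and Gpr83, a receptor gene of these cells, 2.5, with its call lost in 8 fits that left out a library (3.21 if zinc-fed pMT-10 CD4 replicate 2 was left out). Foxp3, their defining factor, averaged 963 CPM against 1660 CPM in CD4 cells, and its difference of 1.51 was not called (adjusted p = 0.156; 0.89 without zinc-fed pMT-10 CD8 replicate 3). Ccr4, a chemokine receptor of helper and regulatory cells, moved both ways: 4.01, 1.04 and 4.25 CPM against 0.429, 1.12 and 0.602 CPM in CD8 cells, where the groups overlapped, and 41.3, 88 and 35.5 CPM against 112, 156 and 161 CPM in CD4 cells, where they did not (difference 3.54, adjusted p = 0.00357). It was the only called gene of 18 tested helper-subset genes, whose median was 0.4, or 0.32 with genes that had a group at 0 put at their bound. With 3.41% of all tested genes called above 0, a count of 1 in 18 says little about that list.

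Genes of killer lectin-like and other NK receptors, which NK cells and experienced T cells carry, fell in CD4 cells in 9 of 19 cases (9.4% of all tested genes fell there). The 9 were all among the 14 killer lectin-like genes of the list, and the other 5 genes were Cd244, Cd226, Crtam, Fcer1g and Tyrobp. Of the 19, 3 lay above 0 and 1, Crtam, below, with a median of 1.52. In CD8 cells 2 rose and 3 fell, and in CD4 cells 4 rose and 9 fell. With pMT-10 without zinc as control, 8 of the 19 were called above 0 and 1 below, with a median of 2.59. Klrd1, which pairs with NKG2 chains, had CD8 groups that overlapped at 40.6, 50.2 and 47.3 CPM and 66.1, 49.3 and 38.6 CPM. It fell in CD4 cells to 0.522, 0.797 and 0.974 CPM, against 3.34, 5.94 and 2.91 CPM. The difference was 2.26 (SE 0.41, adjusted p = 0.00357). Klra9, an inhibitory Ly49 receptor gene, had 2.77 (adjusted p = 0.00999). Klrk1, the activating receptor NKG2D, had 1.67, and its call was lost in 13 of the 18 fits that left out a library (highest adjusted p = 0.15). The summed NK marker list of 12 genes stood in CD8 cells at 171 to 267 CPM in zinc-fed pMT-10, 145 to 202 CPM in zinc-fed C57BL/6 and 149 to 177 CPM in pMT-10 without zinc. It stood in CD4 cells at 301 to 383 CPM in zinc-fed pMT-10, at 64.7 to 84.2 CPM in zinc-fed C57BL/6 and at 194 to 227 CPM in pMT-10 without zinc; the list holds Eomes, Gzma and Klra9. Ncr1, Klra8 and Klra4 were at 0 in zinc-fed pMT-10 CD4 cells. The part of NK cells in these genes was not tested.

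Tnfsf8, the CD30 ligand, was not called in CD8 cells, at 100, 139 and 97.8 CPM against 146, 114 and 125 CPM, and fell in CD4 cells to 9.92, 30.8 and 9.07 CPM, against 107, 75.6 and 101 CPM. Its difference was 2.33 (SE 0.44, adjusted p = 0.00548; 3.12 without zinc-fed pMT-10 CD4 replicate 2). Gpr15, a homing receptor of the gut, had CD8 groups at 9.39, 11.3 and 4.76 CPM and 19.2, 11.6 and 15.4 CPM, which did not overlap but were not called (adjusted p = 0.167). It fell in CD4 cells to 3.13, 3.72 and 0.899 CPM, against 31.2, 32.6 and 33.9 CPM (difference 2.79, adjusted p = 0.00636). The integrin genes Itga6 and Itgb1 lay at 1.17 and 1.39. Selplg, the ligand of P-selectin, lay at -0.76 and, with Itgae, was 1 of 2 called below 0 among 31 tested chemokine and homing receptor genes, 5 of which lay above. Tlr7, a sensor of single-stranded RNA, was not called in CD8 cells and fell in CD4 cells to 2.74, 4.52 and 0.3 CPM, against 27, 25 and 12.8 CPM (difference 3.71, adjusted p = 0.00602; 4.38 without zinc-fed pMT-10 CD4 replicate 2). Gpm6b, a membrane glycoprotein gene, fell in CD4 cells to 3.33, 3.37 and 2.32 CPM, against 28.4, 9.49 and 26 CPM, with a difference of 4.02 whose call was lost without replicate 1 of zinc-fed C57BL/6 CD4 or of zinc-fed pMT-10 CD8 cells (adjusted p = 0.0533 and 0.0517).

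Genes that moved in opposite directions numbered 14 with a rise in CD8 and a fall in CD4 cells, and 5 with the reverse. The rise in CD8 and fall in CD4 was shown by Psapl1, Il9r, Asic4, Ctla4, Ccr4, 4930431P03Rik, Inpp5f, 6230400D17Rik, A530088E08Rik, Kat2b, Nfkbiz, Fcho2, Zfp950 and Cdk2. Nfkbiz, a nuclear regulator of NF-kappaB target genes, stood at 238, 370 and 229 CPM against 148, 166 and 126 CPM in CD8 cells, and at 127, 208 and 140 CPM against 237, 223 and 235 CPM in CD4 cells, with no overlap in either (difference 1.48, SE 0.27, adjusted p = 0.00357). Kat2b, a histone acetyltransferase gene, stood at 205, 215 and 176 CPM against 129, 92 and 91.3 CPM in CD8 cells. The CD4 cells held 125, 181 and 149 CPM against 260, 236 and 188 CPM, again without overlap (difference 1.52, SE 0.24, adjusted p = 0.00106). Inpp5f, an inositol phosphatase gene, had 2.31, Fcho2, a gene of endocytosis, 1.47, and Zfp950, a zinc finger gene, 1.32. Il9r, the IL-9 receptor, stood in CD8 cells at 0.768, 0.471 and 1.39 CPM in zinc-fed pMT-10 and at 0 in zinc-fed C57BL/6, at least 11.4-fold higher, while in CD4 cells it fell to 5.29, 7.89 and 2.17 CPM, against 23, 26.5 and 30.2 CPM. The bound of its difference was 5.92. The CD8 bound was 6.83-fold without zinc-fed C57BL/6 CD8 replicate 3 and 7.79-fold without zinc-fed pMT-10 CD8 replicate 3.

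The reverse was shown by Itgae, Ubald1, H2afx and Mdh2 among others. Itgae, the integrin CD103 of tissue-resident and regulatory T cells (chromosome 11, 73090583 to 73147446), fell in CD8 cells to 57.2, 51.5 and 44.7 CPM in zinc-fed pMT-10, against 89.1, 107 and 84.5 CPM in zinc-fed C57BL/6. In CD4 cells it rose to 78.7, 116 and 96.6 CPM, against 63.8, 72.3 and 64.8 CPM. Neither pair overlapped, and the difference was -1.41 (SE 0.24, adjusted p = 0.00209), with -1.85 against pMT-10 without zinc. Ubald1 lay at -1.05, the histone variant gene H2afx at -0.98 and the mitochondrial malate dehydrogenase gene Mdh2 at -0.92.

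Several genes with a difference below 0 were expressed in CD8 cells of every group and rose in CD4 cells. Eomes, a T-box factor of cytotoxic and memory T cells (chromosome 9, 118478212 to 118486132), stood in CD8 cells at 144, 117 and 202 CPM in zinc-fed pMT-10 and at 78.9, 102 and 111 CPM in zinc-fed C57BL/6, groups that did not overlap but were not called (adjusted p = 0.117). In CD4 cells it rose to 368, 281 and 355 CPM, against 14.7, 16.1 and 29.8 CPM. The difference was -3.39 (SE 0.38, adjusted p = 5.36e-05) and -3.97 against pMT-10 without zinc. The order of the cell types turned: CD4 cells held 217% of the CD8 level of Eomes in zinc-fed pMT-10 mice, while all 6 control CD8 libraries, at 78.9 to 111 CPM, lay above all 6 control CD4 libraries, at 7.57 to 29.8 CPM.

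Nkg7, a cytotoxic granule protein gene (chromosome 7, 43437073 to 43438249), stood in CD8 cells at 1320, 1150 and 1310 CPM against 636, 809 and 708 CPM, without overlap and not called (adjusted p = 0.125). Its CD4 levels rose to 2310, 1420 and 2440 CPM, against 73.1, 106 and 257 CPM. The difference was -3.01 (SE 0.46, adjusted p = 0.0013), and -3.7 if zinc-fed C57BL/6 CD4 replicate 3 was left out. Prf1, the pore-forming protein perforin, overlapped in CD8 cells at 116, 45.6 and 138 CPM and 66.2, 47.5 and 75.6 CPM, and rose in CD4 cells to 117, 69.5 and 99.7 CPM, against 9.5, 19.7 and 16.6 CPM (difference -1.99, adjusted p = 0.0133, and 0.0524, not called, in the 12 libraries of zinc-fed mice alone). Tmevpg1, a long noncoding RNA of the Ifng locus, rose in both cell types, 2.01-fold in CD8 and 7.67-fold in CD4 cells, with a difference of -1.93 (SE 0.29, adjusted p = 0.000756). Ifng itself, at 0.68, did not have a called difference.

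Crtam, an adhesion receptor of cytotoxic T cells (chromosome 9, 40969691 to 41004628), had overlapping CD8 levels of 61.6, 75.9 and 85.4 CPM against 96.4, 88.1 and 76.4 CPM. It rose in CD4 cells to 28.3, 38.6 and 31.5 CPM, against 8.51, 6.79 and 6.83 CPM, and the difference was -2.38 (SE 0.25, adjusted p = 5.36e-05). Runx3, a factor that establishes the CD8 lineage and represses Cd4 (chromosome 4, 135120652 to 135177990), stood in CD8 cells at 432, 378 and 410 CPM against 344, 414 and 460 CPM. It rose in CD4 cells to 519, 333 and 375 CPM, against 116, 133 and 165 CPM, so zinc-fed pMT-10 CD8 and CD4 libraries overlapped while those of C57BL/6 did not (difference -1.57, SE 0.23, adjusted p = 0.000673). Runx3, Nkg7 and Itgae were the 3 called genes among 6 tested CD8 lineage genes, whose median was -1.49. Cd8a and Cd8b1, the coreceptor itself, were not called (differences 1.85 and -0.09). That of Cd8a was 2.64 if CD4 replicate 1 of zinc-fed pMT-10 was left out and 0.83 if CD4 replicate 2 of zinc-fed C57BL/6 was, neither called, and zinc-fed pMT-10 CD4 cells held 2.35, 1.33 and 0.3 CPM of Cd8a, against 2.28, 10 and 2.67 CPM in zinc-fed C57BL/6.

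Other genes with a difference below 0 were Sytl3, a granule-docking protein gene, at -2.53 (adjusted p = 0.000107), Plek, pleckstrin, at -2.63, Amica1, a junctional adhesion receptor gene, at -2.67, Sema4a, a semaphorin gene, at -2.05, St3gal3, a sialyltransferase gene, at -2.22, and Ccdc102a at -2.13. Against pMT-10 without zinc, Plek and Ccdc102a were not called (-1.71 and -0.79, adjusted p = 0.0974 and 0.308). Amica1 was not called in CD8 cells, at 136, 147 and 169 CPM against 120, 101 and 120 CPM, and rose in CD4 cells to 77.3, 70.5 and 76.3 CPM, against 4.33, 8.95 and 13.3 CPM. Bend4 stood at 31.1, 31.2 and 29.7 CPM against 37.2, 30.8 and 33.8 CPM in CD8 cells and at 5.03, 1.51 and 3.82 CPM against 0.912, 0.0772 and 0.393 CPM in CD4 cells. Its difference was -3.04, or -4 when zinc-fed C57BL/6 CD4 replicate 1 was left out, and was not called without CD4 replicate 1 of zinc-fed pMT-10 (-2.67, adjusted p = 0.0524). Serpinb1a, an inhibitor of granule proteases, and Pdgfb, a growth factor chain, rose in both cell types, by 3.4-fold and 3.23-fold in CD8 and by 16.6-fold and 15.6-fold in CD4 cells (differences -2.29 and -2.27). The call of Serpinb1a was lost without CD4 replicate 1 of zinc-fed C57BL/6 (-2.13, adjusted p = 0.0541) and that of Pdgfb in 8 fits that left out a library. Cd4 had a difference of -2.84 that rested on 0 to 5.56 CPM in CD8 cells and was lost in 12 such fits (highest adjusted p = 0.164; -5.2 without zinc-fed pMT-10 CD8 replicate 1, and -2.18 and -2.1, neither called, without replicate 3 of zinc-fed pMT-10 or of zinc-fed C57BL/6 CD8).

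The type 1 and cytotoxic list was split. Of 30 tested genes, 4 lay above 0 and 5 below (5 and 3 without TMM), with a median of -0.12 (0.04 without TMM), while 14 rose in CD8 and 18 in CD4 cells. Below 0 lay Eomes, Nkg7, Prf1, Ctsw, a cathepsin of killer cells, at -0.98, and Il2rb at -0.82. Above 0 lay Gzmb, Gzma, Klrg1 and Prdm1, the gene of the effector factor Blimp-1, at 2.63. Gzmb, granzyme B, stood in CD8 cells at 1750, 913 and 2000 CPM against 14, 9.72 and 34.7 CPM, and in CD4 cells at 1810, 1320 and 1660 CPM against 48.3, 90.2 and 159 CPM. Levels of both cell types overlapped in zinc-fed pMT-10 mice, the difference of 2.29 passed at an adjusted p of 0.0443 (3.03 without zinc-fed C57BL/6 CD8 replicate 3), and the call was lost in 14 of the 18 fits that left out a library. The call of Gzma, granzyme A, was lost in 14 of these fits as well (4.29 if zinc-fed pMT-10 CD4 replicate 3 was left out, and 2.94 without zinc-fed pMT-10 CD8 replicate 1). Klrg1, a receptor of terminal effector cells, rose in CD8 cells to 11.7, 3.95 and 5.05 CPM, against 0.601, 0.0935 and 1.2 CPM, and stood at 157, 187 and 171 CPM against 185, 258 and 198 CPM in CD4 cells (difference 3.63, adjusted p = 0.0145; 4.55 without zinc-fed C57BL/6 CD8 replicate 3 and 3.02 without zinc-fed pMT-10 CD8 replicate 1). Tbx21, the type 1 master factor, and Ccl5, a chemokine gene, were not called (-0.45 and -1.2, adjusted p = 0.393 and 0.227). Ccl5 was called, at -1.96 (adjusted p = 0.0077), if CD4 replicate 3 of zinc-fed C57BL/6 was left out.

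T cell receptor and signalling genes rose in CD4 cells in 13 of 25 cases, against 9.29% of all tested genes. Of the 25 tested genes, 1 lay above 0 and 6 below (2 and 3 without TMM; 3.41% and 2.08% of all genes), with a median of -0.37. None was called in CD8 cells, and 2 fell in CD4 cells. Lat, the adaptor that recruits signalling enzymes to the receptor, stood in CD8 cells at 610, 487 and 628 CPM against 498, 640 and 550 CPM and in CD4 cells at 1460, 904 and 1170 CPM against 447, 589 and 681 CPM (difference -1.01; -0.86 and -0.83, neither called, without CD4 replicate 1 of zinc-fed C57BL/6 or of zinc-fed pMT-10). Cd247, the zeta chain, had -1.02, Fyn, a Src-family kinase, -0.91 with its call lost in 6 fits, and Cd3e, Zap70 and Themis -0.87, -0.76 and -0.89. The gene above 0 was Dgka, a diacylglycerol kinase that dampens receptor signals, which stood in CD8 cells at 1160, 1380 and 975 CPM against 1290, 1520 and 1260 CPM. Its CD4 levels fell to 423, 577 and 379 CPM, against 1190, 1170 and 1050 CPM (difference 1.09, SE 0.22, adjusted p = 0.00602).

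Glycolysis genes with a called difference lay below 0. Of 14 tested genes, 3 lay below 0 and none above (0 called without TMM), with a median of -0.55, and 2 rose in CD8 and 8 in CD4 cells. Pkm, pyruvate kinase, stood at 632, 659 and 834 CPM against 657, 662 and 782 CPM in CD8 cells and at 1520, 1470 and 1530 CPM against 888, 920 and 991 CPM in CD4 cells (difference -0.68, adjusted p = 0.0184). Pfkp, phosphofructokinase, had -0.78 and Tpi1, triosephosphate isomerase, -0.97, with calls lost in 6 and 10 fits that left out a library. The call of Pkm was lost without replicate 1 of zinc-fed pMT-10 CD8, of zinc-fed pMT-10 CD4 or of zinc-fed C57BL/6 CD4, or without zinc-fed C57BL/6 CD8 replicate 3 (highest adjusted p = 0.0586).

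Interferon-gamma response genes rose in both cell types, and a subset rose more in CD8 cells. Of 24 tested genes, 15 rose in CD8 and 19 in CD4 cells, and 4 lay above 0 and 1 below, with a median of 0.56 (0.5 with genes that had a group at 0 put at their bound). With pMT-10 without zinc as control, 6 of the 24 were called above 0 and none below. The 4 called above 0 against C57BL/6 were Gm12250, annotated as a processed pseudogene, and the GTPase genes Igtp, Gbp4 and Gbp3. Products of such GTPase genes attack the vacuoles of intracellular microbes. The promoters of 3 of the 4 are shown with matches to 2 known elements of interferon-responsive genes. Whether these elements acted here was not tested. The stretches run from 110 bases before to 10 after the RefSeq start (GRCm38.p6, plus strand), and capitals mark matches on either strand to the STAT element TTCNNNGAA, called GAS, or to the interferon response element, called ISRE, of GAAA, any 2 bases and GAAA. For each gene a promoter that already held an ISRE match was taken, so that match was fixed by the choice.
Igtp, chr11:58199446-58199565: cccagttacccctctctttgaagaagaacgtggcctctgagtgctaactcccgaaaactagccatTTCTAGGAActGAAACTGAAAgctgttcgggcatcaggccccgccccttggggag
Gm12250, chr11:58183733-58183852: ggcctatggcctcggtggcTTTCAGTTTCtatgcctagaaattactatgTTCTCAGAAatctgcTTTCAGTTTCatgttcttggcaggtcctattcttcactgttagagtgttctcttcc
Gbp3, chr3:142559934-142560053: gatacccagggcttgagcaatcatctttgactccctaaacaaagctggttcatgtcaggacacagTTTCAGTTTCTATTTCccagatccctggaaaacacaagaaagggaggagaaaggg

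Igtp held 1 GAS and 1 ISRE match in this stretch, Gm12250 held 1 and 2, and Gbp3 held 2 overlapping ISRE matches and no GAS match. In windows of 250 bases before to 50 after the start, a GAS match was found for 8 of 19 tested interferon-gamma response genes with a RefSeq promoter (42.1%), 8.42% of 8621 tested genes and 9.55% of all 27025. An ISRE match was found for 42.1%, 3.65% and 3.99% of the same sets. Among all genes called above 0 (281 with a promoter) the shares were 6.41% for GAS and 4.63% for ISRE, and among those called below 0 (185) 8.65% and 4.86%, close to the background. Shares for the AP-1 motif TGANTCA were 7.83% above and 8.11% below, against 5.95% of tested genes. For the RUNX motif TGTGGT they were 17.1% and 19.5%, against 15.5%, and for the T-box motif AGGTGT 15.3% and 14.1%, against 13.2%. A match is a run of letters and not a bound site.

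Igtp stood in CD8 cells at 370, 306 and 359 CPM against 91.2, 66 and 87.8 CPM, and in CD4 cells at 257, 313 and 208 CPM against 111, 146 and 156 CPM. Gm12250 stood at 401, 364 and 412 CPM against 90.4, 78.8 and 77.3 CPM, and at 343, 389 and 330 CPM against 176, 161 and 202 CPM. Neither gene had overlapping groups in either cell type, and in zinc-fed C57BL/6 mice all CD4 libraries stood above all CD8 libraries. Differences were 1.16 for Igtp and 1.28 for Gm12250 (adjusted p = 0.0161 and 0.00796), with 1.33 and 1.2 against pMT-10 without zinc. Gbp4 had 0.89, which was not called without zinc-fed C57BL/6 CD8 replicate 3 or zinc-fed pMT-10 CD4 replicate 1 (0.78 and 0.87), and Gbp3 had 0.82 (adjusted p = 0.00999). Psmb8, a subunit of the immunoproteasome, lay below 0 at -0.69; it was not called in CD8 cells and rose in CD4 cells. Gm12250 is annotated as a processed pseudogene, and its reads could be shared with near-identical family members, which makes its count uncertain. The annotated gene starts at 58187739, past the end of the printed stretch at 58183852. Of 33 tested type I interferon-stimulated genes, 2 lay above 0 and 1 below, with a median of 0.37, which is near the 3.41% and 2.08% of all genes tested. They were Mx2 at 4.61, on levels of 3.29 CPM or less in each library of zinc-fed mice (5.33 without zinc-fed C57BL/6 CD8 replicate 2), Oasl2 at 1.97, with its call lost in 7 fits, and Lgals3bp at -1.03.

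**Figure D5:**
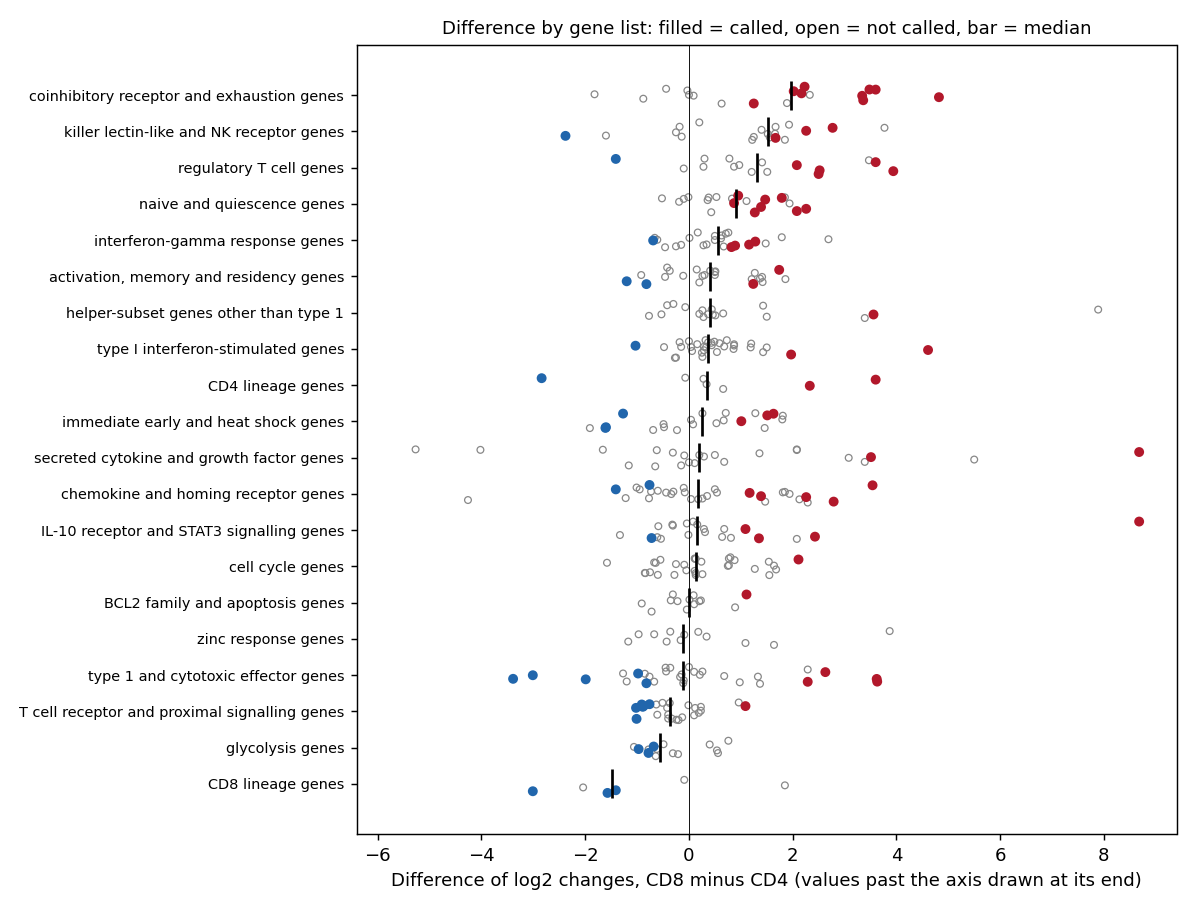
Log2 difference, CD8 change minus CD4 change, of each tested gene (points) in 20 gene lists ordered by their median (bars), with called genes filled and others open. Medians run from -1.49 for the CD8 lineage genes to 1.96 for the coinhibitory genes, and most points of most lists are open; fitted values of genes with a group at 0 counts, such as Il10 at the right edge, are not bounds.

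Activation and immediate early genes were split against zinc-fed C57BL/6. Ly6a, the surface antigen Sca-1 that interferons raise in T cells, rose in CD8 cells to 657, 506 and 722 CPM, against 46.9, 43.6 and 58.2 CPM, and in CD4 cells to 2280, 1860 and 1840 CPM, against 518, 455 and 600 CPM. The groups stood far apart in both, 12.7-fold in CD8 and 3.8-fold in CD4 cells, and the difference was 1.74 (SE 0.26, adjusted p = 0.000756), although the CPM gain was larger in CD4 cells. Irf4, an activation-induced factor, rose in CD8 cells to 25.9, 22.2 and 26.4 CPM, against 12.3, 8.79 and 10 CPM, and was not called in CD4 cells (difference 1.24, adjusted p = 0.0142). These were the 2 called above 0 among 23 tested activation genes, with Vim, vimentin, at -1.2 (adjusted p = 0.00621) and Il2rb below (the call of Il2rb was lost in 12 fits). The activation list was not split with pMT-10 without zinc as control, where 5 of the 23 were called above 0 and none below. Of 21 tested immediate early and heat shock genes, Jun, Dusp1 and Ier2 lay above 0 at 1.63, 1.51 and 1.01, and Egr1, Egr3 and Fosl2 below at -1.6, -1.61 and -1.27, with the call of Egr3 lost in 9 fits. Jun, an AP-1 subunit, stood in CD8 cells at 223, 439 and 332 CPM against 177, 196 and 102 CPM and in CD4 cells at 148, 192 and 226 CPM against 299, 297 and 243 CPM. Egr1, induced by receptor signalling, had CD8 groups that overlapped and rose in CD4 cells to 359, 496 and 300 CPM, against 117, 78.6 and 200 CPM. Of 31 tested cell cycle genes 1 was called: Birc5, survivin, at 2.11 against C57BL/6 and 0.1 against pMT-10 without zinc, with its call lost in 5 fits. Bcl2, the survival factor, was the only called gene of 13 tested apoptosis genes, at 1.1, with its call lost in 13 fits. Of all tested genes 3.41% were called above 0, so a count of 1 in the cell cycle or apoptosis list says little about it. None of 12 tested zinc response genes was called against zinc-fed C57BL/6 in edgeR with TMM, Mt1 among them (1.64, adjusted p = 0.358). In that comparison 1 was called above 0 without TMM and 1 in DESeq2. With pMT-10 without zinc as control, where zinc differed too, 1 of the 12 was called below 0 in edgeR with TMM.

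Some defining markers of other cell types were absent while others were read. Pax5 and Rag2 of B cells were at 0 in all 6 groups, while the summed B cell list stood in CD4 cells at 287 to 612 CPM in zinc-fed pMT-10, 233 to 317 CPM in zinc-fed C57BL/6 and 212 to 301 CPM in pMT-10 without zinc. That list is led by Cd74, the invariant chain of MHC class II, whose difference was 1.79 (adjusted p = 0.0225; call lost in 5 fits), and it holds Dntt, terminal transferase of young lymphocytes, at 3.21 (adjusted p = 0.00249). Dntt fell in CD4 cells to 0.718, 1.42 and 0.749 CPM, against 19, 22.2 and 11.2 CPM. The gamma-delta and innate-like T cell list stood in CD4 cells at 8.99 to 20.7 CPM in zinc-fed pMT-10. It stood there at 45.6 to 56.7 CPM in zinc-fed C57BL/6 and at 186 to 207 CPM in pMT-10 without zinc. None of its 5 tested genes was called against zinc-fed C57BL/6 (median difference 0.46). With pMT-10 without zinc as control, 2 of the 5 were called above 0 (median difference 3.41). Of the erythroid list, 1 of 5 tested was called, Alas2 of heme synthesis, at -7.15 or below as a bound, on 1.41 CPM in 1 CD8 library of zinc-fed C57BL/6 (replicate 3) and with its call lost in 10 fits (a bound of -5.08 without that library). The neutrophil list of 17 genes stood in CD4 cells at 37.8 to 107 CPM in zinc-fed pMT-10, 93.5 to 157 CPM in zinc-fed C57BL/6 and 133 to 177 CPM in pMT-10 without zinc, and the monocyte list of 23 at 306 to 318, 197 to 233 and 227 to 285 CPM. In CD8 cells, in the same order of mice, the neutrophil list stood at 2.73 to 25.8, 1.81 to 6.45 and 1.27 to 4.26 CPM. The monocyte list stood there at 213 to 263, 172 to 251 and 141 to 187 CPM. The B cell list stood there at 69.1 to 93, 63.6 to 102 and 76.2 to 92.6 CPM, and the gamma-delta list at 19.5 to 34.9, 37.8 to 42.1 and 21.9 to 42.3 CPM. No gene of the neutrophil, monocyte, platelet or stem cell lists was called for the difference. The part of these cells in the differences was not tested.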

How the data were processed

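CD4 and CD8 T cells were sorted from mouse bone marrow by flow cytometry, total RNA was extracted and amplified with a targeted panel of 1 amplicon per gene, and 18 libraries were sequenced, per the labels' protocols. Each deposited file holds whole-number read counts that the authors made, 1 for each of 23930 amplicons, on the build mm10 per the submitters' processing notes. For the aligner, the counter, strand handling and molecular identifiers, the sources used here give nothing. An amplicon reads a short stretch of a transcript, so isoforms, and overlapping or near-identical genes, may share or lose reads.

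From these deposited counts, amplicons with enough reads for edgeR's filterByExpr were kept (11316) and fitted with edgeR 4.0.16 in R 4.3.3 (TMM, robust quasi-likelihood, 6 group means over 18 libraries), with Benjamini-Hochberg adjustment over all tested genes at 0.05. "Called" means past that threshold, and "rose" and "fell" are used of called changes. Folds are ratios of mean CPM. Where a control group had 0 counts, the fold is a bound against 3 counts over the group, and none is given for 1 to 3 counts. The pipeline was tested on simulated data. DESeq2 1.42.0, other scalings and filters, the 12 zinc-fed libraries alone, a replicate block and each library left out were alternatives.

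Named genes were, in each direction, the 15 largest called differences that had the same sign against both controls and at least 20 CPM in a zinc-fed group, up to 4 called genes per list, up to 10 genes that moved in opposite directions, up to 6 that turned sign, and a fixed set. Other called genes of a list, the rest of the genes that moved in opposite directions, Adgrg5, Havcr2, Socs3 and Psmb8, were named after their values were seen. The comparison, the 30 gene lists and the named sets were chosen with earlier results of these data known, so list counts are descriptions. Promoters came from RefSeq (GRCm38.p6) and gene positions from GENCODE (GRCm38). The self-test is not quoted. Some results are not reported here.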

Additional observations from a re-analysis of the deposited data

Results flagged for a closer look

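The change in CD8 cells differed from that in CD4 cells, by the test of the difference itself (edgeR, adjusted p under 0.05), for 89 of the 98 genes chosen by the stated rules, and 88 of these are given. All values are log2 differences, CD8 change minus CD4 change, against zinc-fed C57BL/6. With a group at 0 counts the difference was at least 5.92 for Il9r, 5.53 for Il10, 5.34 for Map6 and 5.25 for Cass4, and at most -7.15 for Alas2, as bounds from pooled counts. Of these genes, the largest fitted differences above 0 were Itgb8 at 6.51, 2900026A02Rik at 5.26, Ankrd6 at 4.84, Tox2 at 4.82, Mx2 at 4.61, Slc4a8 at 4.47, Atcay at 4.37, Ica1 at 4.20, Gpm6b at 4.02, Nrp1 at 3.94, Tlr7 at 3.71 and Naip6 at 3.68. Next in size came Klrg1 at 3.63, Gzma at 3.62, Ctla4 at 3.60, Ccr4 at 3.54, Csf1 at 3.51, Rgs16 at 3.48, Tigit at 3.36, Pdcd1 at 3.34, Dntt at 3.21, 4930431P03Rik at 2.86, Gpr15 at 2.79 and Klra9 at 2.77. Below these lay Ikzf4 at 2.52, Gpr83 at 2.50, Il6ra at 2.43, Tnfsf8 at 2.33, Inpp5f at 2.31, Gzmb at 2.29, Klrd1 at 2.26, Birc5 at 2.11, Dapl1 at 2.08, Oasl2 at 1.97 and Cd74 at 1.79. Smaller still were Bach2 at 1.79, Ly6a at 1.74, Klrk1 at 1.67, Jun at 1.63, Kat2b at 1.52, Dusp1 at 1.51, Nfkbiz at 1.48, Pik3ip1 at 1.47, Fcho2 at 1.47, Pim1 at 1.35, Zfp950 at 1.32 and Gm12250 at 1.28. The smallest above 0 were Irf4 at 1.24, Igtp at 1.16, Bcl2 at 1.10, Il6st at 1.09, Dgka at 1.09, Gbp4 at 0.89 and Gbp3 at 0.82. Below 0 lay Eomes at -3.39, Bend4 at -3.04, Nkg7 at -3.01, Cd4 at -2.84, Amica1 at -2.67, Plek at -2.63, Sytl3 at -2.53, Crtam at -2.38, Serpinb1a at -2.29, Pdgfb at -2.27, St3gal3 at -2.22 and Ccdc102a at -2.13. Then followed Sema4a at -2.05, Prf1 at -1.99, Tmevpg1 at -1.93, Egr3 at -1.61, Egr1 at -1.60, Runx3 at -1.57, Pdlim7 at -1.49, Itgae at -1.41, Vim at -1.20, Lgals3bp at -1.03, Cd247 at -1.02 and Lat at -1.01. The smallest below 0 were Tpi1 at -0.97, Fyn at -0.91, Il2rb at -0.82, Pfkp at -0.78 and Pkm at -0.68. Itgb8, Ankrd6 and Ica1 rest on 3 or fewer control reads in CD8 cells, so their fitted values give no size.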

How the results depend on the processing

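The count of 621 called differences against zinc-fed C57BL/6 was 1055 with no filter, 410 in the 12 libraries of zinc-fed mice alone and 1030 in DESeq2, and ranged from 264 to 847 when a library was left out (847 without zinc-fed pMT-10 CD4 replicate 2). Against pMT-10 without zinc, the 428 became 847 with no filter, 799 in DESeq2 and 139 to 697 with a library left out. Between the controls the count of 1 became 71 with no filter, 8 in DESeq2 and 1 to 2 with a library left out. The 620 genes of 1 sign against both controls became 1035, 1025 and 264 to 844 in the same order. With a library left out, the 997 calls in CD8 cells against C57BL/6 ranged from 596 (without zinc-fed C57BL/6 CD8 replicate 3) to 1072, and the 876 against pMT-10 without zinc from 568 (without pMT-10 without zinc CD8 replicate 3) to 925. The 2115 and 2125 calls in CD4 cells ranged from 1361 to 2211 and from 1386 to 2238, both lowest without zinc-fed pMT-10 CD4 replicate 1. Without TMM the split of higher and lower calls was 648 and 120 for the difference, 537 and 76 against pMT-10 without zinc, 731 and 245 in CD8 and 831 and 1448 in CD4 cells against C57BL/6, and 770 and 1688 in CD4 cells against pMT-10 without zinc. Of 89 called named genes, 60 were called without any single library, and none of the 89 changed direction. Cd8b1, which was not called, lay at -0.09 and ranged from -0.3 to 0.07 with a library left out. Of the 89, 17 were not called in the 12 libraries alone (Itgb8, Alas2, Bcl2, Egr3, Tpi1, Il2rb, Il6ra, Fyn, Dapl1, Klrk1, Gzmb, Gzma, Prf1, Pdgfb, Cd4 and Nrp1 among them), 6 without TMM, 2 without robust estimation and 1, Cd4, in DESeq2. Of the 9 named genes that were not called, Lag3, Ccl5, Foxp3 and Cd8a were called with no filter, and Ccl5 also with the replicate block and without zinc-fed C57BL/6 CD4 replicate 3. Without TMM, called genes above and below 0 numbered 7 and 1 of the regulatory T cell list, 6 and 0 of the interferon-gamma response, 7 and 1 of the homing receptor, 4 and 0 of the cytokine, 3 and 1 of the activation and 3 and 2 of the immediate early list.

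The labels do not say which libraries share a mouse, so the main fit used no pairs. Deviations of neighbouring title numbers correlated at -0.042 to 0.2, and 9 of 18 libraries correlated best with the next number. These values do not settle whether neighbouring numbers are pairs. With the replicate block by consecutive title numbers, 687 differences were called against C57BL/6 (530 shared with the 621), 433 against pMT-10 without zinc and 1 between the controls, 684 had the same sign against both controls, and 5 named genes lost their call. The causes were not tested. Depth limits the genes near 0 counts in CD8 controls, whose folds are bounds.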
